A study of Mus musculus with 20 samples.

Results

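Melanomas hold leukocytes beside tumor and stromal cells, and here both fractions of mouse tumors carrying only the oncogenic form of BRAF (called B) were compared gene by gene. The comparison took the 3 samples of cells that magnetic beads retained through CD45 and the 3 samples of the remaining cells, that is 6 of the 20 samples of the series. The samples were chosen by their titles alone, and no measured value entered that choice. All 19504 genes with a symbol were compared. CD45, encoded by Ptprc, is a phosphatase on the surface of all nucleated blood cells, which sets the antigen receptor signaling of lymphocytes and is absent from melanocytes, fibroblasts and endothelium. Macrophages and dendritic cells take up debris, sense microbial and cellular products and present antigen, while T and natural killer cells recognize and kill target cells. The other fraction of a melanoma contains the transformed melanocytes, which derive from the neural crest, together with fibroblasts that lay down collagen and cells of the vessel wall.

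In the B mice (Tyr::CreERT2;BrafCA/CA) a Cre recombinase driven by the tyrosinase promoter, active in the melanocyte lineage, switched on BrafV600E after 4-hydroxytamoxifen was put on the skin. The drug was given at 5 mg/ml in acetone on postnatal days 2.5 and 3.5, and a single UVB dose of 6.24 kJ/m² followed on day 3.5. Tumors were taken at endpoint size, at an age not given in the labels, dissociated mechanically and with enzymes, and split with a CD45 positive selection kit. The same treatment and sorting were applied to a second genotype, Tyr::CreERT2;BrafCA/CA;p38αlox/lox, which gave 3 samples of each fraction. There p38α was also deleted in melanocytes, and the genotype is called B;p38α. Complete, unsorted B tumors (5 samples) serve below for levels only. Biological replicates are named in the labels, but not whether every replicate is a different animal. The p-values therefore measure only the spread among these samples, which may in part be technical.

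All values are log2 expression levels from microarrays, normalized before deposition, and differences are CD45+ minus CD45- on that scale, where each unit is a doubling. Medians of the 6 arrays ran from 6.75 to 6.99. The values of CD45- replicate 1 covered a narrower range (interquartile range 2.95, where the other 5 arrays had 3.41 to 3.81), and its median correlation with the rest of its group was 0.911. CD45+ replicate 1 correlated more closely across genes with CD45- replicate 2 (r = 0.963) than with CD45+ replicate 2 (r = 0.955). Values of the Y-linked genes differed within both groups, with means of 8.67, 4.30 and 5.36 in CD45+ replicates 1 to 3 and 6.79, 8.60 and 2.79 in CD45- replicates 1 to 3, and the labels do not state the animals' sex. The median SD of a gene was 0.25 among the CD45+ and 0.38 among the CD45- samples.

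Ptprc, the gene of the selected protein, was examined first. Its level was 11.74, 12.11 and 12.14 in CD45+ replicates 1 to 3 and 9.95, 9.66 and 9.67 in CD45- replicates 1 to 3, and replicates are listed in this order throughout. Every CD45+ sample lay above every CD45- sample. The difference was 2.24 (SE 0.40), a 4.7-fold higher level, with a limma adjusted p of 0.0111. The two-sided exact permutation p was 0.1, the smallest that 3 against 3 samples allow. Ptprc was nonetheless measured in the CD45- fraction at 9.76 ± 0.17 (SD, n = 3), beside 9.99 ± 0.41 (SD, n = 5) in complete B tumors and 7.93 ± 0.99 (SD, n = 3) in the CD45- fraction of B;p38α tumors. Fewer cells of a type and less RNA of a gene per cell cannot be told apart in these bulk samples.

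More genes were higher than lower in CD45+ cells, and the higher ones differed by more. With limma, at a threshold of 0.05 on p-values adjusted by Benjamini-Hochberg over every gene tested, 760 genes (3.9%) were higher in CD45+ cells and 148 (0.759%) were lower, together 4.66% of all genes. At an unadjusted p under 0.05 the numbers were 1922 and 1360. The higher genes had a median difference of 1.60, and 211 of them exceeded 2. The lower genes had a median of -0.96, only 66 of them reached -1 and 0 reached -2. Over all genes the median difference was -0.06. CD45+ samples lay wholly above CD45- samples for 11.4% of all genes and wholly below for 8.63%. Counts of list members below are to be read beside these shares and the shares called, 3.9% higher and 0.759% lower. Of all calls 83.7% were higher, and 73.6% were when quantile normalization was repeated on the fitted arrays. Over all alternatives run, this share went from 54.1% with array weights (1434 higher and 1218 lower genes) to 97% without CD45+ replicate 3, and it was 96.8% with the replicate number as a block. Single arrays moved these counts. Without CD45+ replicates 1, 2 or 3 there were 442, 429 and 263 higher genes, and without CD45- replicate 2 there were 486. Lower genes numbered 95, 18 and 8 without CD45+ replicates 1, 2 and 3, and 299, 67 and 50 without CD45- replicates 1, 2 and 3. Only 255 higher and 7 lower genes kept their call in all 6 fits that each left out 1 of these arrays, and such genes are said below to have kept their call in all 6 fits.

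The 15 largest increases included genes of macrophages, dendritic cells and lymphocytes. Mmp12, the macrophage elastase, led them. It stood at 11.36, 9.77 and 10.10 in CD45+ cells and at 6.0, 9.20 and 6.41 in CD45- cells, a difference of 3.21 (SE 0.80, adjusted p = 0.0462). CD45- replicate 2 came close to the CD45+ samples, the groups did not overlap, and the call was kept in 1 of the 6 fits (without CD45- replicate 2 the difference was 4.20). Slamf7, a self-binding receptor of activated leukocytes, stood at 8.36, 9.38 and 9.32 against 5.64, 5.52 and 6.73 (difference 3.06, SE 0.45, adjusted p = 0.00446). Ccl17, a chemokine that dendritic cells use to attract CCR4-bearing T cells, stood at 10.10, 9.05 and 9.27 against 5.03, 7.55 and 6.89 (difference 2.98, SE 0.55, adjusted p = 0.0123). Both kept their call in all 6 fits. In both the groups did not overlap, but the CD45- samples of Ccl17 spread widely, from 5.03 to 7.55. Ccl22, the second ligand of CCR4, stood at 8.75, 9.20 and 9.04 against 6.20, 6.69 and 6.32 (difference 2.59, SE 0.28, adjusted p = 0.00216). Btk, the kinase that links B cell and Fc receptors to phospholipase C, stood at 8.59, 7.99 and 8.53 against 5.62, 5.42 and 5.89 (difference 2.73, SE 0.37, adjusted p = 0.00317). Il21r, the receptor of the T cell cytokine interleukin 21, stood at 8.84, 8.26 and 8.47 against 5.75, 6.49 and 5.52 (difference 2.60, SE 0.29, adjusted p = 0.00216). The within-group ranges of these 3 genes were small beside the gap between the groups, and all 3 kept their call in all 6 fits. Tifab (2.76), Nlrp3 (2.72), which forms an inflammasome, Rbm47 (2.64), an RNA-binding protein, and Ptpn22 (2.61), a phosphatase that dampens T cell receptor signaling, did so too. The remaining 5 were less steady. Tlr7 (2.64), an endosomal receptor of single-stranded RNA, and Ms4a6d (2.59) kept the call in 5 fits, Ifi209 (2.59) in 3, Mgl2 (2.78), a lectin of dermal dendritic cells and macrophages, in 1, and Clec5a (2.61), a myeloid lectin, in 0.

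**Figure D1:**
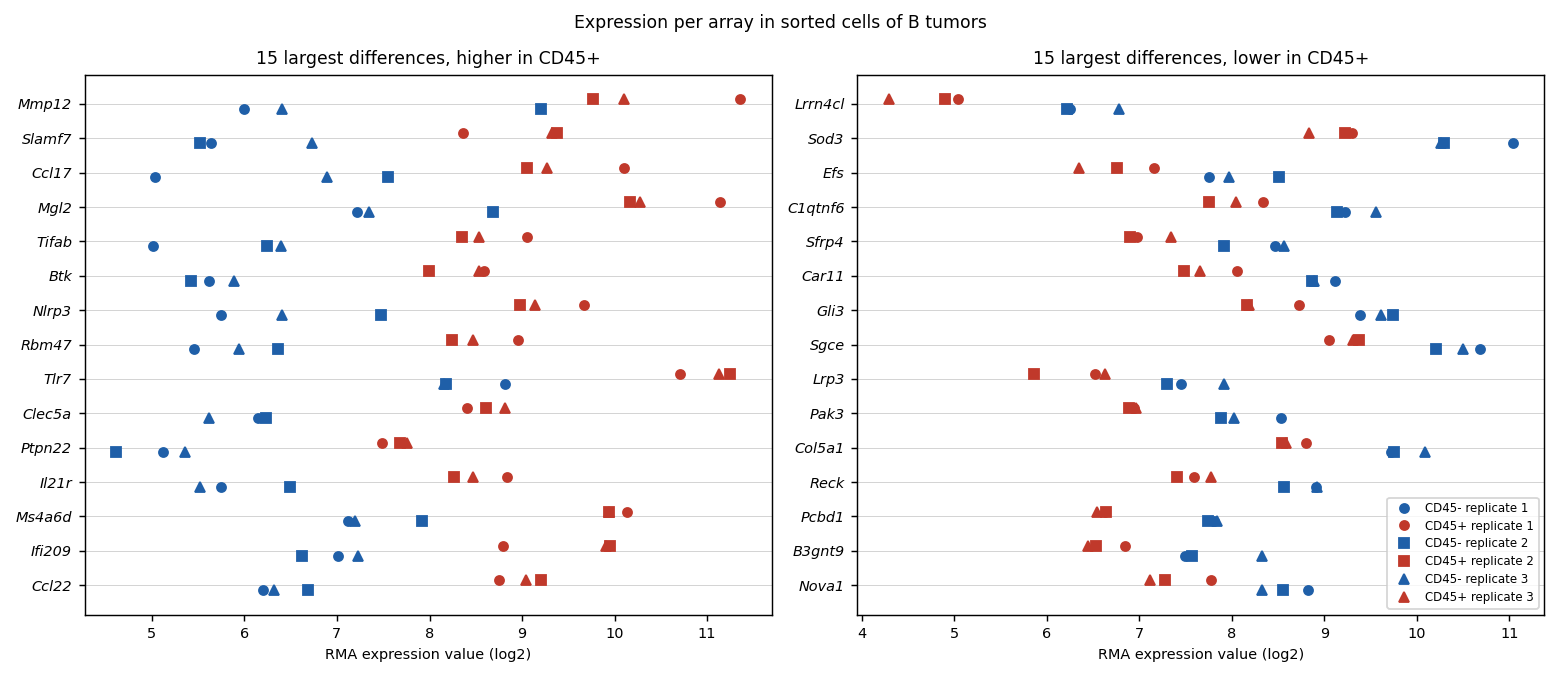
Log2 level in each of the 6 B samples for the 15 genes with the largest called difference in each direction, with CD45+ and CD45- samples as separate markers. For all 30 genes the 3 samples of one fraction lie on one side of the 3 samples of the other. The genes were chosen by this difference in the same samples, so their separation is no separate evidence for it. Differences of the means are larger among the higher genes (up to 3.21) than among the lower ones (down to -1.67).

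Lower genes were led by Lrrn4cl, a leucine-rich repeat membrane protein. It stood at 5.04, 4.90 and 4.29 in CD45+ cells and at 6.25, 6.22 and 6.78 in CD45- cells (difference -1.67, SE 0.26, adjusted p = 0.00628). Sgce, the epsilon subunit of the sarcoglycans, stood at 9.05, 9.37 and 9.31 against 10.68, 10.21 and 10.50 (difference -1.22, SE 0.22, adjusted p = 0.0105). Pcbd1, which recycles the tetrahydrobiopterin cofactor, stood at 6.63, 6.64 and 6.54 against 7.81, 7.74 and 7.84 (difference -1.20, SE 0.20, adjusted p = 0.00847). These 3 genes kept their call in all 6 fits, and no CD45+ value reached a CD45- value. Col5a1, a chain of type V collagen (-1.21), C1qtnf6 (-1.26) and Pak3, a kinase downstream of Rac (-1.21), kept it in 4 of the 6 fits. Gli3, a transcription factor of the Hedgehog pathway (-1.22), Reck, a membrane-bound inhibitor of matrix metalloproteinases (-1.21), and Nova1, a neuronal splicing factor (-1.18), kept it in 2. Efs, a docking protein of adhesion signaling (-1.32), and B3gnt9, a glycosyltransferase (-1.19), kept it in 1. For Sod3, the extracellular superoxide dismutase (-1.41), Sfrp4, a secreted WNT antagonist (-1.25), Car11 (-1.23) and Lrp3 (-1.22), each of the 6 fits lost the call. Apart from Lrrn4cl, these lower genes spanned -1.18 to -1.41.

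Promoters of higher genes are shown because a sequence word was more frequent in them than in promoters at large. PU.1, the product of Spi1, is the transcription factor that specifies macrophages and other myeloid cells, and its preferred DNA word is GAGGAAGT. Of the 760 higher genes 611 had a promoter of 300 bases (250 before the most upstream RefSeq start to 50 after, GRCm38.p6), and 68 of these (11.1%) held the word on either strand. It was held by 471 of the 15690 promoters of all measured genes (3%) and by 1 of the 109 promoters of lower genes (0.917%). Among the 50 largest increases 6 of 37 held it (16.2%), and among the 50 largest decreases 0 of 38. The other words were searched in the same windows. TGACTCA, the word of the AP-1 factors, was in 3.76% of higher, 4.59% of lower and 4.63% of all promoters. TCACATG, a word of the melanocyte factor MITF, was in 4.75%, 1.83% and 3.21%, and CACGTG, the E-box that MITF and MYC share, in 9.82%, 3.67% and 8.21%. Among the 50 largest increases TGACTCA was in 4 of 37 (10.8%), and among the 50 largest decreases in 3 of 38 (7.89%). TCACATG was in 0% and 2.63% of these promoters, and CACGTG in 5.41% and 5.26%. None of the 4 words contains another, and no test was made of these shares. A match describes letters in a window and not a bound site. The 250 bases before the start are given for the 3 named genes among the 50 largest increases that held the PU.1 word there, 5′ to 3′ on the gene's own strand, with the word in capitals (ACTTCCTC is the same word read on the opposite strand).
Mmp12: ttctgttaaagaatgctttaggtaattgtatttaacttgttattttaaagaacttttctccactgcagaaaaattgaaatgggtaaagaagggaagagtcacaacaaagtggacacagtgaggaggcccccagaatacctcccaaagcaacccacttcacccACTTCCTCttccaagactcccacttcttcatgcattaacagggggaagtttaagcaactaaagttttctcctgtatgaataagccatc
Fcgr4: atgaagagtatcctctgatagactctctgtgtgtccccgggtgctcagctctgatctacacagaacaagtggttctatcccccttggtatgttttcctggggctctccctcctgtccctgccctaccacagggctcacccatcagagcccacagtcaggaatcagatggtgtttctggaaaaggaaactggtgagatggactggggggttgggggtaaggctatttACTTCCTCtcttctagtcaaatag
Inpp5d: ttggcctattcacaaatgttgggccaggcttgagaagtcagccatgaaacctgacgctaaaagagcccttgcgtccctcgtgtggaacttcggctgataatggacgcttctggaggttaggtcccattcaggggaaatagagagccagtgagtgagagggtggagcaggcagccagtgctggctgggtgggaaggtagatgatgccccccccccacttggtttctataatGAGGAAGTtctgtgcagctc
These stretches lie at chr9:7344147-7344396 (Mmp12), chr1:171018676-171018925 (Fcgr4) and chr1:87620062-87620311 (Inpp5d), each on the plus strand of GRCm38.p6. The word began 88, 24 and 20 bases before the start. Spi1 itself, named here for the word although it lies outside the rule for named genes, stood at 12.77, 12.53 and 12.46 in CD45+ cells and at 10.87, 10.67 and 9.99 in CD45- cells. The groups lay apart by 2.08 (SE 0.62), but the difference did not pass the test (adjusted p = 0.0886).

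Genes that mark leukocytes in general separated the fractions without exception in direction. All 25 members of this list were above every CD45- sample in every CD45+ sample, where 11.4% of all genes were, and 16 of the 25 passed the test. The mean level of the list was 10.46, 10.28 and 10.35 in CD45+ and 8.54, 8.45 and 8.24 in CD45- samples, with a median difference of 2.08 against -0.06 over all genes. The fractions thus differed while the replicates of each stayed close together. Itgb2, the beta chain shared by the leukocyte integrins, stood at 10.18, 9.74 and 9.92 against 7.64, 7.84 and 7.28 (difference 2.36, SE 0.45, adjusted p = 0.0139). Cd52 (2.31), Cd48 (2.29), Vav1 (2.28), an exchange factor downstream of antigen receptors, and Rac2 (2.27), its small GTPase partner in blood cells, were also higher. Laptm5 (1.79, adjusted p = 0.107) and Cd53 (1.59, adjusted p = 0.216), both defining markers, did not pass, although their groups did not overlap. Leaving out single B arrays left between 7 (without CD45+ replicate 3) and 12 (without CD45- replicate 1) called members. In complete B tumors the list's mean level was 8.53 to 9.31, below every CD45+ sample and from just under the highest CD45- sample upward.

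**Figure D2:**
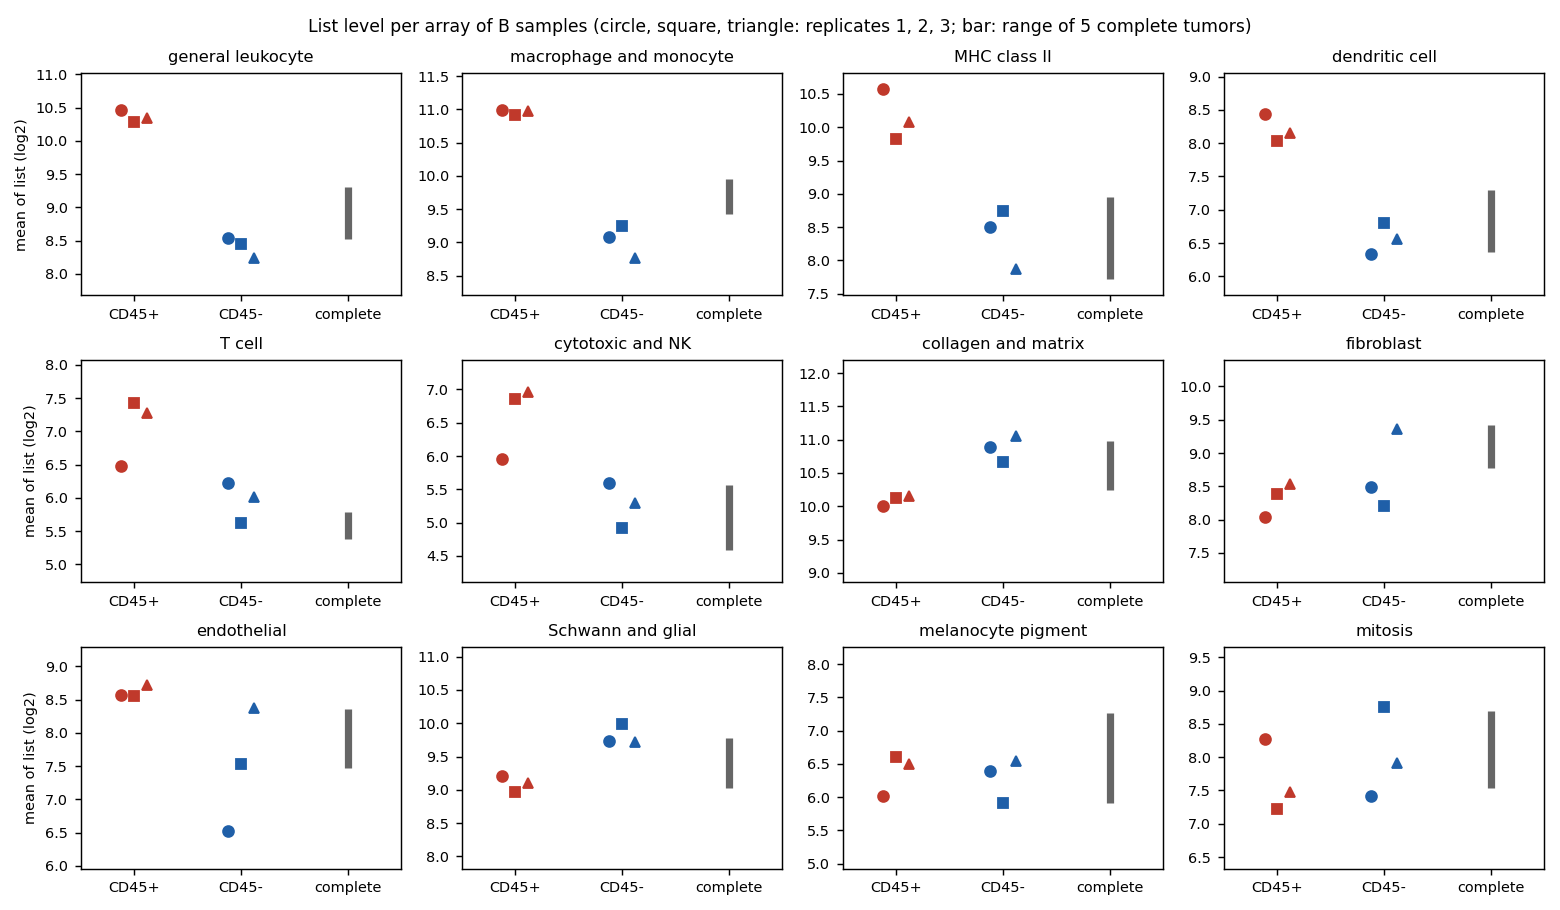
Mean log2 level of the measured members of selected gene lists in each of the 6 B sorted samples, with a bar for the range of the 5 complete B tumors. General leukocyte and macrophage lists split cleanly by fraction, T cell and cytotoxic lists split less widely, and the endothelial list has CD45- samples spread from 6.53 to 8.38 below CD45+ samples at 8.55 to 8.72.

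Macrophage and monocyte genes were higher as a group. All 23 measured members had every CD45+ sample above every CD45- sample, which held for 11.4% of all genes. The median difference was 2.08, yet only 9 passed the test. The list's mean level was 10.99, 10.91 and 10.97 in CD45+ cells and 9.08, 9.25 and 8.76 in CD45- cells. Trem2, a lipid-sensing receptor of tissue macrophages, stood at 9.88, 9.68 and 9.62 against 7.30, 7.81 and 7.12 (difference 2.32, SE 0.40, adjusted p = 0.00929) and kept its call in all 6 fits. The other leading members were Ms4a6d (2.59), Ms4a6c (2.32), Adgre1 (2.24), an adhesion receptor that marks macrophages, and Mpeg1 (2.19), a pore-forming protein of phagosomes. Adgre1 stood at 10.90, 11.20 and 11.30 against 9.20, 8.91 and 8.58 (adjusted p = 0.0387), and its call was lost in each of the 6 fits. Csf1r, the receptor of the macrophage growth factor, stood at 12.49, 12.40 and 12.47 against 11.14, 10.75 and 9.93 (difference 1.85, adjusted p = 0.107), and C1qa at 11.99, 11.89 and 11.91 against 10.53, 10.18 and 9.51 (difference 1.86, adjusted p = 0.156). In both, the CD45+ samples were nearly equal and the CD45- samples spread over more than 1 unit. Between 1 (without CD45+ replicate 3) and 6 (without CD45- replicate 1) members were called when single B arrays were left out.

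Resident and alternatively activated macrophage genes had a median difference of 1.91 over 18 members, of which 4 were higher. These were Mgl2 (2.78), Stab1 (2.27), a scavenger receptor, Clec10a (2.15), a galactose-binding lectin, and Pf4 (1.89), a chemokine of platelets and macrophages. Among proteases that degrade matrix, 3 of 10 were higher, namely Mmp12 (3.21), Ctss (1.94), the cathepsin that trims the class II invariant chain, and Mmp8 (1.45), the neutrophil collagenase. At most 1 member of either list was called when any single B array was left out. Of the lysosomal genes 4 of 17 were higher (median 0.41), with Ctss followed by Ctsh (1.23), Lgmn (0.96) and Gla (0.87). Lgmn, the asparaginyl endopeptidase legumain, stood at 12.84, 12.83 and 12.85 against 12.04, 11.89 and 11.71 (SE 0.17, adjusted p = 0.0111). Its CD45+ samples differed by hardly anything, and it kept its call in 5 fits. In those 5 fits it was the only lysosomal gene called, and 0 were called without CD45+ replicate 3.

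Dendritic cell genes had the largest share of higher calls among the 47 lists described by a median, 14 of 19 (median difference 1.94), where 3.9% of all genes were called higher. Flt3, the growth factor receptor on which dendritic cells depend, stood at 7.52, 6.89 and 7.17 against 5.40, 4.88 and 5.47 (difference 1.94, SE 0.24, adjusted p = 0.00235). Cd83, a marker of mature dendritic cells, stood at 10.65, 10.65 and 10.78 against 8.0, 8.41 and 8.13 (difference 2.52, SE 0.40, adjusted p = 0.00657). Both kept their call in all 6 fits, and in neither did the groups come near each other. Markers of the cross-presenting type were higher as well. Xcr1, the receptor through which these cells follow XCL1, stood at 9.05, 7.56 and 7.85 against 5.54, 6.44 and 6.05 (difference 2.14, SE 0.47, adjusted p = 0.0267), and Clec9a, a receptor of dead cells, at 8.05, 7.18 and 7.17 against 4.73, 5.70 and 4.75 (difference 2.40, SE 0.52, adjusted p = 0.0244). CD45+ replicate 1 was the highest sample for both, and CD45- replicate 2 the highest of its group. Cd209a, a lectin of monocyte-derived dendritic cells, was higher by 2.34. Zbtb46, a transcription factor of classical dendritic cells, stood at 6.19, 5.80 and 6.29 against 5.15, 5.56 and 5.67 and did not pass (difference 0.63, adjusted p = 0.145). Single omissions left between 8 (without CD45+ replicate 1 or 3) and 12 members called.

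Antigen presentation genes were higher in both branches, in part of their members. Of 10 class II genes 4 were higher (median 1.89). Ciita, the coactivator that turns on all class II genes, stood at 10.03, 8.79 and 9.26 against 6.65, 7.38 and 6.70 (difference 2.45, SE 0.35, adjusted p = 0.00412). H2-Ob, part of a modulator of peptide loading, stood at 8.87, 8.45 and 8.81 against 6.97, 7.13 and 6.09 (difference 1.98, SE 0.27, adjusted p = 0.00304). Ciita and H2-Ob kept their call in all 6 fits, and they were the 2 called members without CD45+ replicate 1 or 3. H2-DMa (2.16) and H2-DMb1 (1.97), which exchange peptides on class II molecules, were higher too. All 10 members had groups that did not overlap with CD45+ above, which held for 11.4% of all genes. Of 14 class I genes 3 were higher (median 0.79). Psmb8, a catalytic subunit of the immunoproteasome, stood at 9.55, 9.34 and 9.42 against 7.86, 8.06 and 7.88 (difference 1.50, SE 0.19, adjusted p = 0.00273) and kept its call in all 6 fits. Psmb9 (1.55), a second such subunit, and Tap1 (1.04), a subunit of the peptide transporter, made up the rest. Without CD45- replicate 3 the class I count was again 3, and it was 1 when any of the other 5 was left out.

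Innate sensing genes were higher in most of their members. Of 29 Toll-like, NOD-like and lectin receptors 17 were higher, with a median difference of 2.09. Nlrp3 stood at 9.67, 8.98 and 9.14 against 5.75, 7.48 and 6.41 (difference 2.72, SE 0.49, adjusted p = 0.0116). Tlr7 stood at 10.71, 11.25 and 11.13 against 8.82, 8.18 and 8.16 (difference 2.64, SE 0.48, adjusted p = 0.0116). Whereas CD45+ replicate 1 was the highest of its group for Nlrp3, it was the lowest for Tlr7. Clec5a (2.61), Clec4a2 (2.55) and Clec4n (2.51), lectins of myeloid cells, completed the leading members. The count ran from 4 (without CD45+ replicate 3) to 13 (without CD45- replicate 1) when single B arrays were left out.

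Signaling through Fc receptors and the tyrosine motifs they share was represented by 18 genes, of which 11 were higher (median 2.03). Inpp5d, the lipid phosphatase SHIP1 that restrains these receptors and whose promoter is shown above, stood at 10.79, 10.67 and 10.64 against 8.19, 8.52 and 8.08 (difference 2.44, SE 0.32, adjusted p = 0.00295). Fcgr4, an activating receptor of immunoglobulin G, stood at 10.39, 9.75 and 10.00 against 7.24, 8.05 and 7.32 (difference 2.51, SE 0.46, adjusted p = 0.0124). Both had CD45+ and CD45- samples far apart, with 6 and 5 fits keeping the call. Btk (2.73), Plcg2 (2.48), the phospholipase that Btk activates, and Pik3cg (2.21), a lipid kinase of leukocytes, were the other leading members, and at least 6 members were called whichever single B array was left out.

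Phagocyte oxidase and scavenger genes gave 7 higher of 15 (median 1.90). Ncf1, the organizer subunit of the oxidase, stood at 10.92, 11.05 and 11.00 against 8.71, 8.65 and 8.29 (difference 2.44, SE 0.39, adjusted p = 0.00685). Its groups were tight and apart, and its call was kept in all 6 fits. Ncf4 (2.54), another cytosolic subunit, Siglec1 (2.38), a sialic acid receptor of macrophages, and Slc11a1 (2.23), a metal transporter of phagosomes, were higher and kept their calls in 3, 0 and 1 fits. Of 18 complement genes 5 were higher (median 1.76). They were Itgam (2.38) and Itgax (2.23), the alpha chains of complement receptors 3 and 4, C5ar2 (2.19) and C5ar1 (2.09), receptors of the fragment C5a, and Cfp (2.14), properdin. C5ar2 stood at 8.77, 7.86 and 8.40 against 6.01, 6.35 and 6.08 (SE 0.36, adjusted p = 0.00692) and was the member that kept its call in all 6 fits. Without CD45+ replicate 1 or 3, 1 member of each list was called.

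Adhesion molecules of leukocytes gave 11 higher of 21 (median 1.85), led by Slamf7 (3.06), Cd84 (2.47), Itgam (2.38), Itgb2 (2.36) and Itgax (2.23). Cd84, a self-binding receptor of the same family as Slamf7, stood at 9.88, 9.98 and 10.00 against 7.87, 7.55 and 7.03 (SE 0.44, adjusted p = 0.0109). Itgam stood at 11.52, 11.02 and 11.12 against 8.76, 9.60 and 8.17 (SE 0.59, adjusted p = 0.045). Both had separate groups, but Itgam lost its call in each of the 6 fits and Cd84 in 1. The count was 4 without CD45+ replicate 3 and 12 without CD45- replicate 3.

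Neutrophil genes gave 5 higher of 17 (median 1.25). S100a9 stood at 8.72, 8.54 and 8.73 against 5.31, 6.39 and 6.95 (difference 2.44, SE 0.55, adjusted p = 0.0286), and S100a8, its partner in calprotectin, at 8.55, 7.47 and 7.98 against 5.47, 5.82 and 6.01 (difference 2.23, SE 0.48, adjusted p = 0.0229). CD45- replicate 1 was the lowest sample of both. Csf3r (2.30), the receptor of granulocyte colony-stimulating factor, Cxcr2 (1.68), a chemokine receptor, and Mmp8 (1.45) were the others, and 0 members were called without CD45+ replicate 1 or 3. Mast cell and granulocyte genes had a median of 1.27, and 15 of 16 had a positive difference. In 9 the groups did not overlap with CD45+ above (11.4% of all genes), and in 1 with CD45- above (8.63%). Only 2 of the 16 were called higher. They were Kit (1.77), the stem cell factor receptor, and Siglecf (1.09), a receptor of eosinophils. The defining mast cell proteases spread widely in the CD45- fraction. Cpa3 stood at 11.34, 10.48 and 10.28 against 10.21, 9.49 and 7.37 (difference 1.68, adjusted p = 0.536), Tpsb2 differed by 1.49 (adjusted p = 0.31), and Ms4a2, a chain of the IgE receptor, by 0.80 (adjusted p = 0.394).

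T cell genes were higher in a part of their members, with uneven CD45+ samples. The mean level of the list was 6.48, 7.42 and 7.28 in CD45+ and 6.23, 5.62 and 6.01 in CD45- samples, so that CD45+ replicate 1 lay close to CD45- replicate 1. Of 17 measured members 5 were higher (median 1.14). Cd3e, a chain of the T cell receptor complex, stood at 7.53, 8.23 and 8.12 against 6.54, 6.21 and 6.51 (difference 1.54, SE 0.38, adjusted p = 0.0437). Cd3g stood at 7.33, 8.34 and 8.12 against 6.84, 5.47 and 6.48 (difference 1.67, SE 0.40, adjusted p = 0.0379), and Cd3d at 5.81, 6.31 and 6.01 against 4.15, 5.12 and 4.95, which did not pass (difference 1.30, adjusted p = 0.145). Cd8a, the coreceptor of cytotoxic T cells, differed by 1.85, Cd2 by 1.30 and Themis by 1.27. None of the 17 was called without CD45- replicate 2 or 3 or without CD45+ replicate 2 or 3, and 4 were without CD45- replicate 1.

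Cytotoxic and natural killer genes also had their lowest CD45+ value in replicate 1 (mean levels 5.96, 6.85 and 6.96 against 5.59, 4.92 and 5.30). Of 19 members 5 were higher (median 1.10). Ifng, the cytokine interferon gamma, stood at 6.46, 6.91 and 7.23 against 5.16, 4.21 and 4.17 (difference 2.36, SE 0.29, adjusted p = 0.00235), and Ccl5, a chemokine of cytotoxic cells, at 8.09, 8.40 and 8.45 against 6.69, 6.37 and 6.55 (difference 1.78, SE 0.22, adjusted p = 0.00248). Both kept their call in all 6 fits, and their CD45+ samples all lay more than 1 unit above the CD45- samples. Nkg7 (2.05), a granule membrane protein, Klrk1 (2.01), the activating receptor NKG2D, and Gzma (1.47), a granule protease, were the others. Ncr1, a receptor of natural killer cells, stood at 6.41, 8.34 and 8.30 against 5.28, 4.25 and 5.95 and did not pass (difference 2.52, adjusted p = 0.0607), nor did Klrb1c (1.06, adjusted p = 0.09). The count was 9 without CD45+ replicate 1 and 2 without CD45+ replicate 3.

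Checkpoint and regulatory genes gave 3 higher of 14 (median 0.77). Vsir, which encodes the inhibitory ligand VISTA of myeloid cells, stood at 11.34, 11.25 and 11.07 against 9.02, 9.25 and 8.93 (difference 2.16, SE 0.23, adjusted p = 0.00216). Havcr2, which encodes TIM-3, stood at 8.14, 7.59 and 7.70 against 5.04, 5.93 and 5.59 (difference 2.29, SE 0.34, adjusted p = 0.00451). Cd274, which encodes PD-L1, differed by 1.21 (adjusted p = 0.0168). Vsir and Havcr2 kept their call in all 6 fits and Cd274 in 4, while 6 members were called without CD45+ replicate 1. B and plasma cell genes gave 2 higher of 14, namely Cd79b (2.14) and Cd22 (1.97), which held in all 6 fits. Cd79b, a chain of the signaling pair of the B cell receptor, stood at 8.37, 7.95 and 8.40 against 5.85, 6.46 and 5.98 (SE 0.29, adjusted p = 0.00304). The defining markers did not pass, with Cd79a, the other chain, at 6.47, 6.29 and 6.55 against 5.57, 5.21 and 5.29 (difference 1.08, adjusted p = 0.15) and Ms4a1, which encodes CD20, at 4.85, 5.95 and 5.31 against 5.07, 4.43 and 5.04 (difference 0.52, adjusted p = 0.733). Only the Ms4a1 groups overlapped.

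Soluble messengers and their receptors were mixed. Of 36 chemokines 6 were higher and 0 were lower (1 at an unadjusted p under 0.05), with a median of 0.64. After Ccl17 and Ccl22 came Pf4 (1.89), Cxcl16 (1.89), the ligand of CXCR6, Ccl4 (1.84) and Ccl5 (1.78). Ccl17, Ccl22 and Ccl5 kept their call in all 6 fits, and 3 or 4 members were called whichever B array was left out. Of 22 chemokine receptors 5 were higher, namely Ccr1 (2.32), Xcr1 (2.14), Cxcr4 (1.75), Cxcr2 (1.68) and Ccr6 (1.45). The count was 1 without CD45+ replicate 1 or 3 and 3 when any other single B array was left out. Cxcr4, the receptor of CXCL12, stood at 10.60, 10.29 and 10.30 against 9.0, 8.52 and 8.40 (SE 0.30, adjusted p = 0.00806) and kept its call in all 6 fits. Of 36 cytokines 3 were higher, Ifng (2.36), Il1b (2.15) and Il18 (1.38), with a median of 0.12 that was near that of all genes. Il1b, the main product of inflammasome cleavage, stood at 11.41, 10.12 and 10.35 against 8.50, 9.31 and 7.62 (SE 0.49, adjusted p = 0.0312). The CD45+ samples of Il1b remained above the CD45- samples, but 5 of the 6 fits lost the call, and 1 cytokine was called when any single CD45+ array was left out.

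Interferon-stimulated genes gave 8 higher of 26 (median 0.86). Oas1a, a sensor of double-stranded RNA, stood at 7.90, 7.73 and 7.62 against 5.40, 5.79 and 6.54 (difference 1.84, SE 0.33, adjusted p = 0.0104) and kept its call in all 6 fits. Ifi27l2a (1.99), Irf7 (1.80), a factor that amplifies type I interferon, Mx1 (1.77), an antiviral GTPase, and Oasl1 (1.62) followed. CD45- replicate 3 was the highest of its group for the list as a whole, at 7.83 against 7.03 and 7.22, beside 8.14 to 8.46 in CD45+ samples. The count was 11 without that sample and 1 without CD45+ replicate 3.

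Lineage transcription factors were called in both directions. Of 31 measured, 6 were higher, led by Ikzf1 (2.22), Runx3 (2.00), Irf8 (1.90), Cebpa (1.86) and Tfec (1.61), and 2 were lower, Prrx1 (-1.01) and Sox5 (-0.91). Runx3, which acts in cytotoxic T cells and dendritic cells, stood at 9.78, 8.90 and 9.0 against 7.01, 7.44 and 7.23 (SE 0.23, adjusted p = 0.00223). Irf8, which dendritic cells and monocytes require, stood at 8.94, 8.74 and 8.78 against 6.80, 7.14 and 6.80 (SE 0.25, adjusted p = 0.0029). Ikzf1, Runx3, Irf8 and Cebpa kept their call in all 6 fits. Prrx1, a factor of connective tissue, stood at 9.71, 10.17 and 10.03 against 10.85, 10.63 and 11.44 (SE 0.24, adjusted p = 0.0376), and Sox5, a SOX factor of the melanocyte and cartilage lineages, at 7.81, 7.69 and 7.82 against 8.43, 8.82 and 8.80 (SE 0.20, adjusted p = 0.0262). Neither of these groups overlapped, but each lost its call in 5 of the 6 fits.

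**Figure D3:**
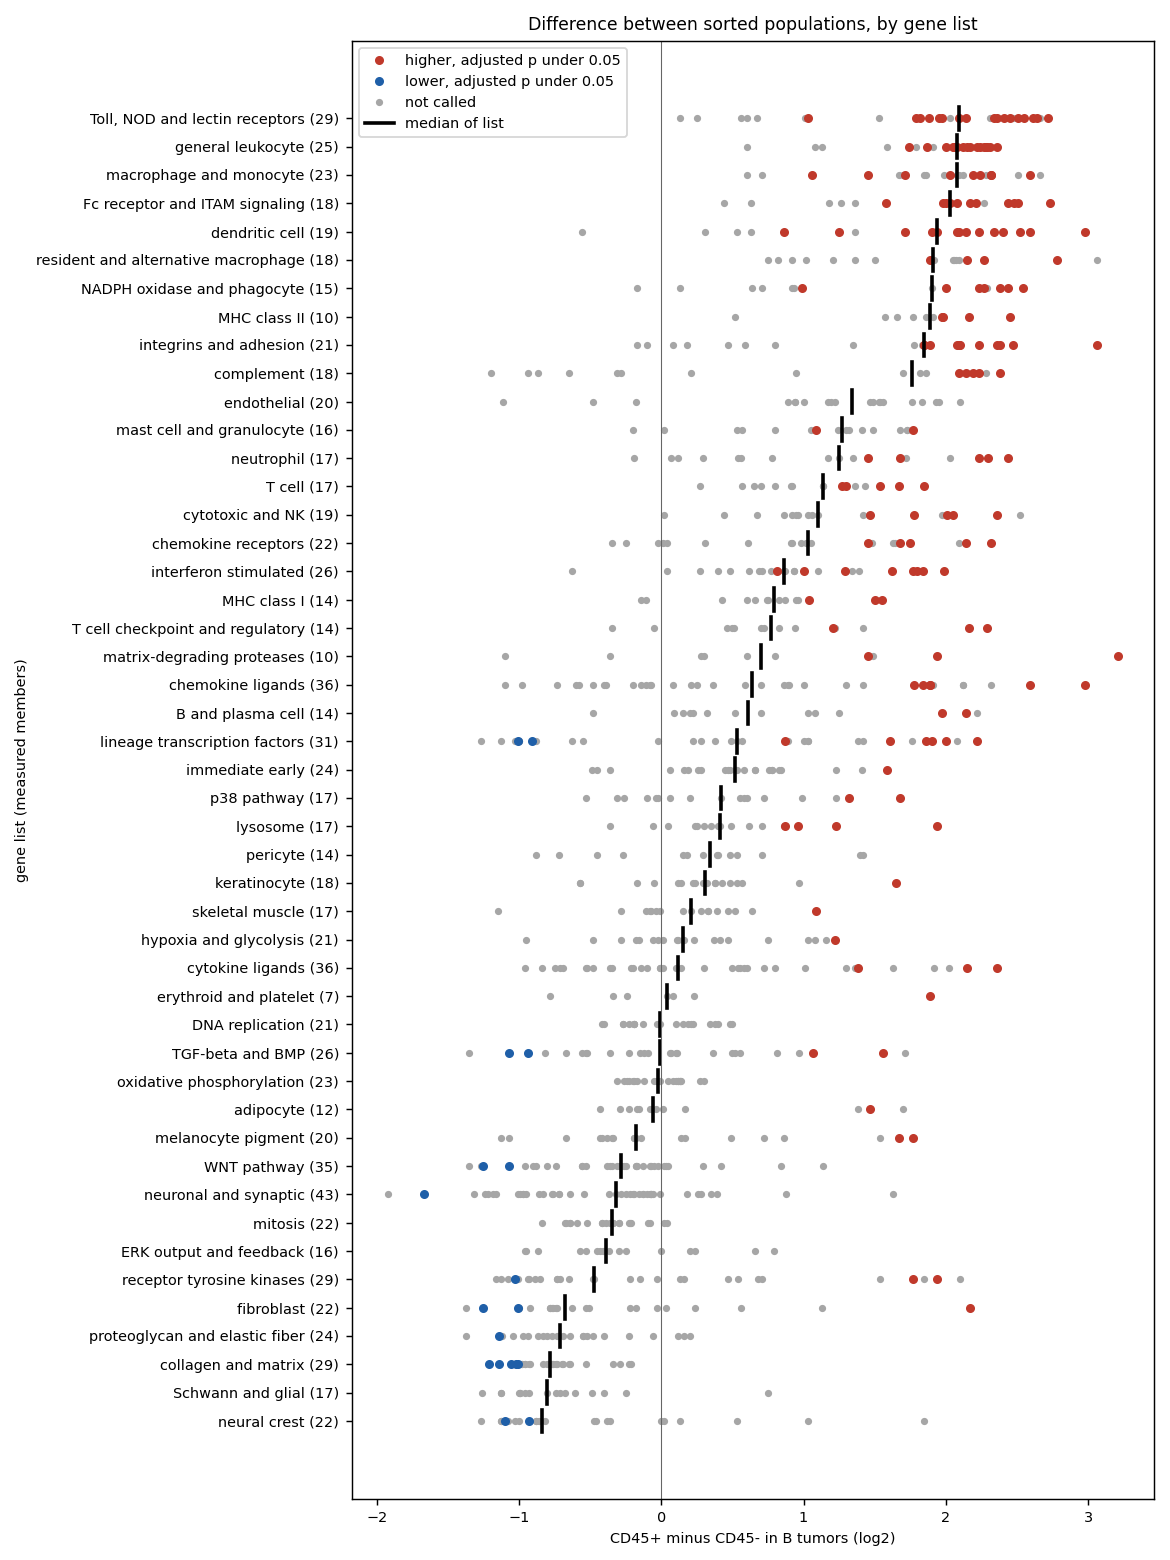
Difference between CD45+ and CD45- cells of B tumors (log2, horizontal axis) for every measured member of the gene lists, with called members marked and the median of each list drawn. Medians of the macrophage and dendritic cell lists lie near 2, those of the T cell and cytotoxic lists near 1, and those of collagen, neural crest and Schwann lists between -0.78 and -0.84.

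On the other side, collagen and basement membrane genes were lower in the CD45+ fraction. All 29 measured members had a negative difference (median -0.78), and for 23 of them every CD45- sample lay above every CD45+ sample, which held for 8.63% of all genes. Only 5 passed the test, where 0.759% of all genes did. They were the 3 chains of type V collagen Col5a1 (-1.21), Col5a2 (-1.14) and Col5a3 (-1.01), Col6a1 (-1.02), a chain of type VI collagen, and Lamb1 (-1.06), a laminin chain. Col5a1 stood at 8.80, 8.54 and 8.59 in CD45+ cells and at 9.72, 9.75 and 10.09 in CD45- cells (SE 0.23, adjusted p = 0.0142). Col6a1 stood at 10.13, 10.46 and 10.39 against 11.43, 11.19 and 11.43 (SE 0.20, adjusted p = 0.0154). The ranges of these genes within a fraction were under the gap between the fractions. Col1a1, a chain of the main fibrillar collagen, stood at 11.46, 11.90 and 11.90 against 12.65, 12.04 and 12.89 and did not pass (difference -0.77, adjusted p = 0.133). Between 0 (without CD45+ replicate 3) and 6 (without CD45- replicate 1) members were called when single B arrays were left out. Of 24 proteoglycan and elastic fiber genes 1 was lower, Mfap2 (-1.14), a microfibril protein, and the median was -0.71. Mfap2 kept its call in 1 of the 6 fits, 0 members were called in the other 5, and without CD45- replicate 3 the median was -0.44.

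Fibroblast genes were less clear. Of 22 members 2 were lower, Sfrp4 (-1.25) and Prrx1 (-1.01), and 1 was higher, Dpp4 (2.17), a surface peptidase that T cells carry as well. Sfrp4 stood at 6.97, 6.90 and 7.34 against 8.47, 7.92 and 8.56. Dpt, which encodes dermatopontin, stood at 7.49, 8.76 and 8.62 against 8.85, 8.09 and 10.68 and did not pass (difference -0.92, adjusted p = 0.755). Its groups overlapped, and CD45- replicate 3 stood above all others. The list's mean level was 8.04, 8.38 and 8.53 in CD45+ samples and 8.49, 8.20 and 9.36 in CD45- samples, overlapping as well. Sfrp4 kept its call in 0, Prrx1 in 1 and Dpp4 in 1 of the 6 fits.

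Endothelial genes did not follow the label of the fractions. Vessel lining cells lack CD45 and belong to stroma, yet 17 of 20 measured members had higher means in the CD45+ fraction, with a median difference of 1.34. With limma 0 passed the test, while 16 positive and 1 negative difference had an unadjusted p under 0.05. In 15 members the groups did not overlap with CD45+ above, which held for 11.4% of all genes. Pecam1, an adhesion molecule that leukocytes also carry, stood at 10.69, 10.81 and 10.90 against 7.65, 8.95 and 10.30 (difference 1.83, adjusted p = 0.0828). Cdh5, which encodes the cadherin of endothelial junctions, stood at 11.21, 11.40 and 11.32 against 9.75, 9.66 and 10.87 (difference 1.22, adjusted p = 0.0623), and Kdr, a receptor of vascular endothelial growth factor, at 11.01, 10.54 and 10.80 against 6.77, 9.25 and 10.03 (difference 2.10, adjusted p = 0.121). The CD45+ samples were alike, and CD45- replicate 3 lay nearest to them. Mean levels of the list were 8.57, 8.55 and 8.72 in CD45+ samples and 6.53, 7.53 and 8.38 in CD45- samples, beside 7.48 to 8.36 in complete tumors. Without CD45- replicate 3, 9 members were called and the median was 1.80, and without CD45- replicate 1, 0 were called and it was 0.80. In B;p38α tumors the median was 0.91, with 0 of 20 called by limma and 8 at an unadjusted p under 0.05. Pericyte genes had a median of 0.34 with 0 of 14 called, although 2 in each direction had an unadjusted p under 0.05. Rgs5 stood at 10.62, 10.87 and 10.90 against 8.71, 8.89 and 10.53 (difference 1.42, adjusted p = 0.124), while Cspg4 (-0.45) and Notch3 (-0.27) overlapped. Whether the level of endothelial genes bears on the other differences was not tested.

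Melanocyte pigment genes did not separate the fractions, with 0 of 20 lower (2 at an unadjusted p under 0.05) and a median of -0.18. Tyr, which encodes tyrosinase and whose promoter drives Cre in these mice, stood at 3.71, 4.50 and 4.11 in CD45+ cells and at 4.67, 2.64 and 4.58 in CD45- cells (difference 0.14, adjusted p = 0.934). Dct stood at 4.60, 7.46 and 7.56 against 6.53, 5.01 and 7.57 (difference 0.17, adjusted p = 0.951). The samples of both genes overlapped and varied more within a fraction than between them. Tyr lay near the low end of these arrays, whose 5th percentiles were 3.14 to 3.90. The mean level of the list was 5.91 to 6.61 in the 6 samples, under the array medians of 6.75 to 6.99. Levels this low limit what the lack of separation can show. Pmel (-0.42, adjusted p = 0.544) and Mlana (-0.43, adjusted p = 0.705) overlapped too. The members that passed were higher, namely Kit (1.77), which mast cells share, and Rab27a (1.67), which moves granules in killer cells as well as melanosomes. Kit stood at 9.01, 8.68 and 8.73 against 7.41, 6.99 and 6.72 (SE 0.22, adjusted p = 0.00246).

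Neural crest genes had a median of -0.84, with 2 of 22 lower. They were Tead1 (-1.10), a factor of the Hippo pathway, and Gfra2 (-0.93), the receptor of neurturin. Gfra2 stood at 11.13, 10.85 and 10.53 against 11.82, 11.51 and 11.97 (SE 0.23, adjusted p = 0.0453). Its groups did not overlap, but each of the 6 fits lost the call. Schwann and glial genes had a median of -0.80, and 0 of 17 passed, although 16 had a negative difference, 9 of them at an unadjusted p under 0.05. In 9 members the groups did not overlap with CD45- above, which held for 8.63% of all genes. Sox10, the factor of melanocytes and Schwann cells, stood at 10.33, 9.57 and 9.71 against 10.95, 11.37 and 10.66 (difference -1.13, adjusted p = 0.0868). CD45+ replicate 1 lay close to CD45- replicate 3. Of 43 neuronal and synaptic genes 1 was lower, Lrrn4cl (-1.67), and the median was -0.32. The lowest difference in this list, -1.92, did not pass. Of the 43, 36 had a negative difference, and 10 were lower and 1 higher at an unadjusted p under 0.05 with limma. In 10 the groups did not overlap with CD45- above (8.63% of all genes), and in 1 with CD45+ above (11.4%).

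Cell types that neither label names were checked by their markers. Called higher were 5.56% of keratinocyte, 5.88% of muscle, 8.33% of fat cell and 14.3% of erythroid and platelet genes, where 3.9% of all genes were. Each of these shares is 1 gene. Krt5 (-0.05), Krt14 (0.38) and Trp63 (0.53), which define basal keratinocytes, overlapped between the fractions, and 1 of 18 keratinocyte genes was higher, Cdh1 (1.65), the epithelial cadherin that skin dendritic cells also use. Muscle genes had mean levels of 5.55 to 5.98 in the 6 sorted samples and of 9.81 to 10.38 in complete tumors. Acta1 (0.47), Myh4 (-0.11) and Ckm (0.28) did not pass, and 1 of 17 muscle genes was higher, Tnni2 (1.09), a troponin subunit. Adipoq (-0.08) and Plin1 (-0.23) of fat cells did not pass, and 1 of 12 such genes was higher, Lipe (1.47), the hormone-sensitive lipase. Alas2, of heme synthesis in red cell precursors, stood at 8.01, 9.36 and 9.74 against 8.72, 8.99 and 11.76 (difference -0.78, adjusted p = 0.715). Pf4 was the only called member of the erythroid and platelet list (1 of 7).

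Proliferation differed among samples of one fraction more than between the fractions. Mitosis genes had mean levels of 8.27, 7.22 and 7.48 in CD45+ samples and of 7.42, 8.76 and 7.91 in CD45- samples. Of 22 mitosis genes and 21 replication genes 0 were called, with medians of -0.35 and -0.01. Oxidative phosphorylation genes had 0 of 23 called and a median of -0.02. Over these 3 lists 1 gene, in replication, had an unadjusted p under 0.05. Immediate early genes, which rise within minutes of stress, gave 1 higher of 24 (4.17%), Klf2 (1.59), near the 3.9% of all genes. Still, 21 of the 24 had a positive difference (median 0.52). In 8 the groups did not overlap with CD45+ above (11.4% of all genes), and in 1 with CD45- above (8.63%). An unadjusted limma p under 0.05 was reached by 6 members, each with a positive difference. The list's mean levels were 10.76, 10.08 and 10.17 in CD45+ and 10.07, 9.97 and 9.43 in CD45- samples, so the fractions nearly touched. Complete tumors stood at 8.43 to 9.11. Of 21 hypoxia and glycolysis genes 1 was higher (4.76%, also near the share of all genes), Pfkfb3 (1.22), an activator of glycolysis. Pfkfb3 stood at 10.13, 10.00 and 10.01 against 8.86, 8.78 and 8.84 (SE 0.14, adjusted p = 0.00223), with samples of each fraction nearly equal and the call kept in all 6 fits.

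Few genes of the signaling pathways of the tumor model passed the test between the fractions. Called higher were 11.8% of p38, 7.69% of TGF-beta and BMP and 6.9% of receptor tyrosine kinase genes, where 3.9% of all genes were. Called lower were 5.71% of WNT, 7.69% of TGF-beta and BMP and 3.45% of receptor tyrosine kinase genes, where 0.759% of all genes were. Each of these shares rests on 1 or 2 genes. More members had an unadjusted p under 0.05 with limma. Of 17 p38 genes 7 were then higher and 0 lower, and of 26 TGF-beta and BMP genes 7 and 4. For the 29 receptor tyrosine kinases the counts were 7 and 8, and for the 35 WNT genes 1 and 8. Over all 19504 genes they were 1922 and 1360. Genes that ERK signaling induces had a median of -0.39, and 0 of 16 were called, while 1 positive and 3 negative differences had an unadjusted p under 0.05. Of 17 genes of the p38 pathway 2 were higher, Map3k5 (1.68), the kinase ASK1 at its head, and Mapkapk3 (1.32), a kinase that p38 activates. Map3k5 stood at 8.13, 8.62 and 8.64 against 6.69, 6.49 and 7.19 (SE 0.27, adjusted p = 0.00717), and both kept their call in all 6 fits. Mapk14, named because it encodes the p38α that the other genotype lacks in melanocytes, stood at 10.31, 10.39 and 10.47 against 9.53, 9.99 and 9.86 and did not pass (difference 0.60, adjusted p = 0.0968). Of 35 WNT genes 2 were lower, Sfrp4 (-1.25) and Fzd8 (-1.07), a receptor, and each of the 6 fits lost both calls. Of 26 genes of the TGF-beta and BMP pathway 2 were higher, Id2 (1.56), an inhibitor of helix-loop-helix factors that innate lymphocytes need, and Tgfbr1 (1.07), and 2 were lower, Bmp1 (-1.07), a procollagen peptidase, and Bmpr1a (-0.94). Tgfbr1 kept its call in 5 fits, Bmp1 in 2 and Bmpr1a in 1. Id2 stood at 11.21, 11.48 and 11.41 against 10.13, 9.72 and 9.57 (SE 0.18, adjusted p = 0.00223), the groups lay more than 1 unit apart, and all 6 fits kept the call. Of 29 receptor tyrosine kinases 2 were higher, Flt3 (1.94) and Kit (1.77), and 1 was lower, Fgfr2 (-1.03), with the call kept in 6, 6 and 1 fits.

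The comparison was set beside the same one in B;p38α tumors. There 847 genes (4.34%) were higher and 86 (0.441%) were lower. Both comparisons called 588 genes higher, 77.4% of the B list and 69.4% of the B;p38α list, and 34 lower, 23% and 39.5%. They share no samples but share the estimate of the spread. Medians of the lists were larger in B;p38α for general leukocyte genes (3.36 against 2.08) and for macrophage genes (3.65 against 2.08), similar for dendritic cell genes (2.03 against 1.94), and smaller in size for collagen genes (-0.47 against -0.78, with 0 called by limma and 10 lower at an unadjusted p under 0.05). The test of the difference between the 2 comparisons called 0 genes with limma (smallest adjusted p 1 after rounding), and 380 genes had an unadjusted p under 0.05. Nothing here is therefore called particular to B tumors. Among general leukocyte genes 22 of 25 had the smaller difference in B, and 5 of them had an unadjusted p under 0.05. The mean level of that list in the CD45- fraction was 8.24 to 8.54 in B and 6.09 to 8.0 in B;p38α, with CD45+ levels of 10.28 to 10.46 and 9.91 to 10.60. The genes named for this difference are, in each direction, the 5 of largest size among those at an unadjusted p under 0.01, and none of them passed; genes with a larger difference and a higher p are not named. Fcgr2b, an inhibitory Fc receptor, was one of the 5 in the negative direction. It averaged 12.96 ± 0.07 and 11.78 ± 0.50 in CD45+ and CD45- cells of B, and 12.45 ± 0.30 and 9.57 ± 0.79 in those of B;p38α (SD, n = 3 each), an interaction of -1.69. The others were Cpm (-2.65), Cd69 (-2.00), Hpgds (-1.71) and Abcc9 (-1.65). In the positive direction they were Upk2 (1.60), St6galnac2 (1.55), St6galnac1 (1.44), Il25 (1.41) and Pramel13 (1.34).

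**Figure D4:**
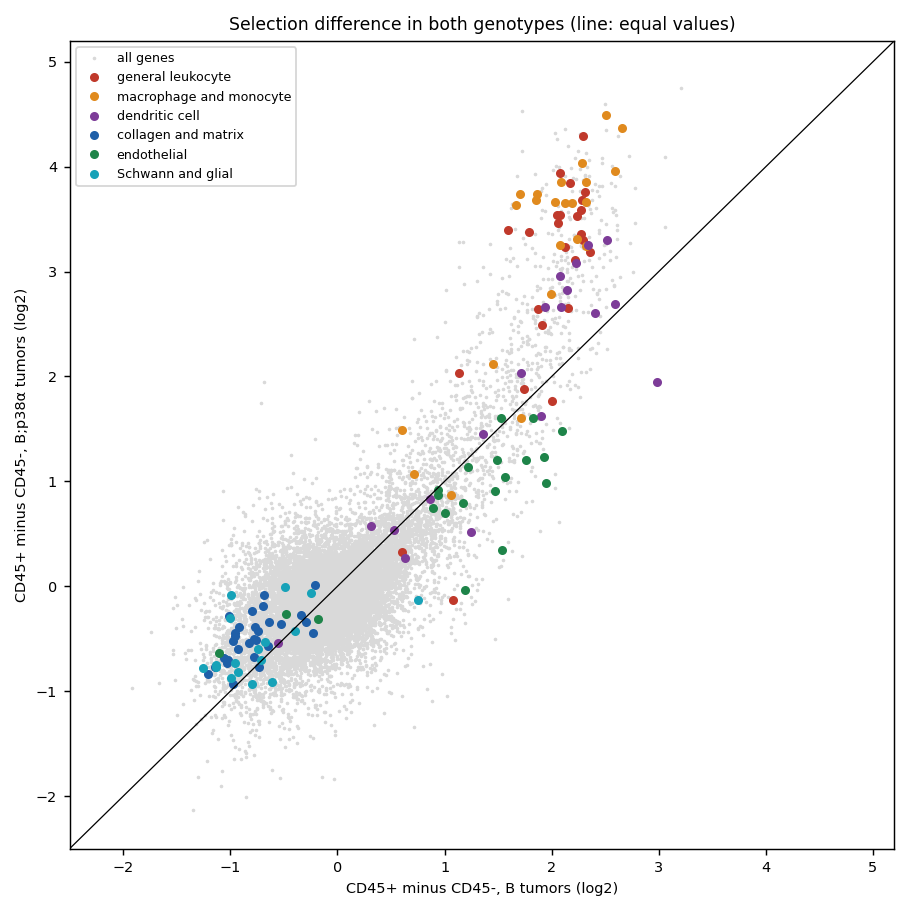
CD45+ minus CD45- difference (log2) of each gene in B tumors (horizontal axis) and in B;p38α tumors (vertical axis), with members of 6 gene lists in color over all genes in grey and a line at equal values. General leukocyte and macrophage genes lie mostly above the line (medians 3.36 and 3.65 against 2.08 and 2.08), and dendritic cell genes have nearly equal medians (2.03 and 1.94).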

How the data were processed

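Expression was measured on microarrays in 20 mouse melanoma samples, of which 6 form this comparison. The deposited values are log2 expression levels that the authors computed with RMA, per the submitters' processing notes. The sources used here do not say which arrays entered that normalization jointly. The table held 21244 rows with 0 missing values and 0 columns of other samples. The platform annotation gave 1 symbol to 19570 rows and none to 1674, and all 19570 matched RefSeq (GRCm38.p6) by entrez number. A gene with several rows was represented by its brightest one (by the mean of the 20 arrays), so 66 rows were not used. No filter on dim genes was applied, and the number of arrays limits the precision.

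Groups came from the sample titles. The 4 sorted groups (12 arrays, 8 residual degrees of freedom) entered a single fit (limma 3.58.1, lmFit then eBayes; R 4.3.3), and p-values were adjusted by Benjamini-Hochberg over 19504 genes at a threshold of 0.05. The fit was also run on simulated arrays with 19504 genes. For each comparison 100 genes were changed by 1 log2 unit and 100 by 2. The B comparison recovered 23% and 87% of these, with 4 false calls, and the interaction 1% and 50% with 2. Whether these figures hold for the measured arrays, which differed in range and spread, was not tested. The 48 gene lists (896 of 966 distinct genes measured) are described by counts and medians without a test, and the remaining list members were not analysed here. The members, lists, tests and alternatives were chosen with earlier results of these data known. Named genes are Ptprc, the 15 with the largest called difference each way, up to 5 called members per list with the largest difference plus defining cell type markers, and up to 5 each way for the interaction, by size among those at an unadjusted p under 0.01; predicted genes, small RNAs and receptor segments are counted without being named (17 higher, 3 lower). Alternatives were other sets of arrays, the replicate number as a block, a filter on genes under the 30th percentile, repeated quantile normalization, array weights, all rows, a Y-linked covariate, a trended robust variance, stricter thresholds and leaving out each array in turn. Plots used matplotlib 3.10.9 (Python 3.11.15).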

Additional observations from a re-analysis of the deposited data

Results flagged for a closer look

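The rows of the table to which the platform annotation gave no gene symbol were not part of the comparison. Fitted in the same way, 58 of the 1674 were higher and 9 were lower in CD45+ than in CD45- cells of B tumors, with differences from 2.62 to -1.42 on the log2 scale. What these rows measure is not identified here.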

How the results depend on the processing

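No gene called in the comparison changed sign under any alternative. The count of higher genes, 760, was 1434 with array weights, 246 at an adjusted p under 0.01 and 290 without the 2 arrays of narrowest range (an alternative added after seeing the data), and 263 to 845 when single arrays were left out. The count of lower genes, 148, was 24 with only the 6 B arrays, 269 with all 20 arrays, 287 without dim genes, 291 after repeated quantile normalization, 1218 with array weights, 234 with a trended robust variance, 39 without the 2 arrays of narrowest range, 7 at an adjusted p under 0.01, 66 at a difference of at least 1, and 8 to 299 when single arrays were left out. Of these, leaving out B;p38α CD45+ replicates 1, 2 and 3 gave 83, 79 and 232 lower genes. The interaction had 0 genes called except without B;p38α CD45+ replicate 3, with 1. The Ptprc difference was 2.17 to 2.36, and 32 to 36 lists had a positive median, when single B arrays were left out. The cause of these shifts was not tested.

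Replicate numbers did not match the samples of both fractions throughout, and the labels do not say which samples share a tumor. Deviations from the group means correlated by -0.465, -0.568 and 0.363 between same-numbered B samples, while CD45+ replicate 1 correlated by 0.603 with CD45- replicate 2 and CD45+ replicate 2 by 0.617 with CD45- replicate 1. The latter 2 samples were also the B sorted arrays of narrowest range (interquartile range 3.41 and 2.95). Between same-numbered B;p38α samples the correlations were 0.305, -0.111 and 0.353. The main fit used no pairing, and pairing in another order was not tested. With the replicate number as a block 517 genes were higher and 17 were lower.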
